A study of Rattus norvegicus with 20 samples.

Results

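Gene expression was compared between diabetic and normal rat leg muscle, without treatment, on 5 arrays per group out of 20 arrays in the series. The 10 arrays were the columns titled as diabetic or normal muscle, and every probe set except the spike-in and control ones was taken. The normal group is labelled normal muscle and the diabetic group diabetic muscle, and all samples are described as rear leg skeletal muscle. The other 10 arrays held muscle of diabetic and normal rats that received vanadyl sulfate (a salt of vanadium that mimics some actions of insulin). They are used here for the shared estimate of the spread and for another diabetes comparison. They also entered the brightness filter and the choice of the probe set that stands for each gene. How the rats were made diabetic, the muscle taken, and the rats' strain, sex and age are not stated in the labels. The labels do not say whether each replicate was an animal of its own, so p-values measure the spread between these samples, which may in part be technical.

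Skeletal muscle takes up most of the glucose that insulin clears from the blood, through the transporter GLUT4, which insulin moves from vesicles inside the cell to its surface. When insulin is lacking or its signal fails, muscle takes in less glucose and burns more fatty acids. These enter mitochondria through the carnitine shuttle, while the pyruvate dehydrogenase complex, the entry of glucose carbon into the citrate cycle, is held back. Diabetes is also known for muscle wasting and for signs of inflammation in muscle and fat.

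The values were Affymetrix MAS5 signal intensities, analysed as log2(signal + 16), and 6027 of 8740 probe sets, standing for 3582 named genes, were bright enough to be tested. The median signal per array ran from 377 to 585 in the 10 arrays. Of 8 muscle genes checked in these 10 arrays, the creatine kinase Ckm was at the top of every array, and the actin Acta1, the fast troponins Tnnt3 and Tnni2, parvalbumin (Pvalb), Pygm and Eno3 had lowest percentiles between 96.8 and 99.9. The fast myosin Myh1 ran only from percentile 65.1 to 79.8. Normal arrays 1 and 3 stood apart, with a log2 ratio of 3′ to 5′ Gapdh signal of 2.90 and 2.91 against 0.025 to 1.11 in the other 8. A high ratio is the usual sign of shortened RNA. Diabetic arrays 1 and 3 were the most alike pair of all 20 arrays (Pearson r = 0.968 over tested probe sets) and had the highest beta-actin ratios of the diabetic group, 2.30 and 2.52. The group means of both ratios differed by less than their spread (exact permutation p = 0.444 for each, two-sided, adjusted p = 0.444 over 2 tests).

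Diabetic muscle differed from normal muscle in both directions, with more rises than falls. At a Benjamini-Hochberg adjusted p under 0.05 in limma's moderated test, 110 of 6027 probe sets (1.83%) differed, 76 higher (1.26%) and 34 lower (0.564%) in diabetic muscle. Counted as genes, each by its brightest probe set, 74 of 3582 (2.07%) passed, 48 risen (1.34%) and 26 fallen (0.726%). Every count of risen or fallen list members below stands beside these 2 shares. The signals of the 5 diabetic and 5 normal arrays did not overlap for 194 of the 3582 genes (5.42%), 128 with all diabetic values above (3.57%) and 66 with all below (1.84%). Among the 74 genes past the test 57 had no overlap, 36 of the risen and 21 of the fallen, a count that selection on the same arrays raises. Over all 3582 genes the median log2 change was -0.04. Leaving out diabetic arrays 1 and 3 together left 3 probe sets higher and 0 lower (in limma without adjustment, 259 and 185 had a p under 0.05), and leaving out normal arrays 1 and 3 gave 212 and 240. Named genes past the test whose values are printed in full are therefore also given without diabetic arrays 1 and 3.

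**Figure D1:**
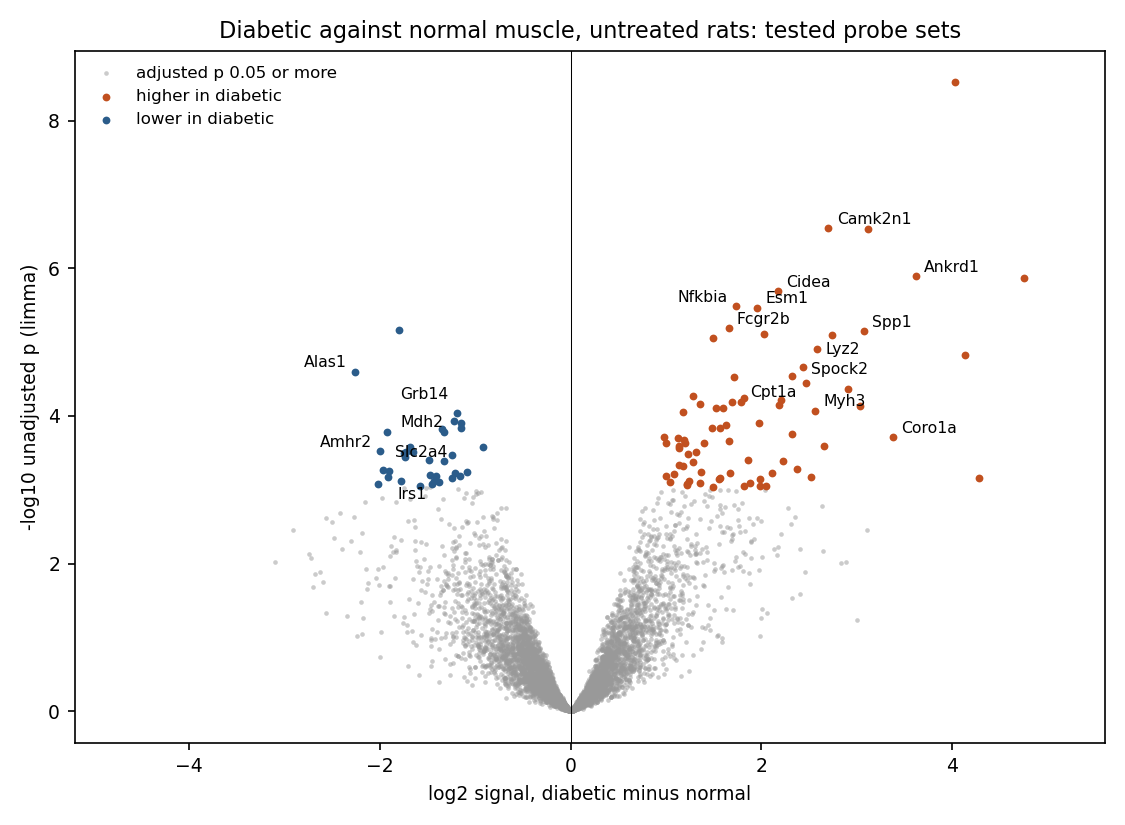
Each point is 1 of the 6027 tested probe sets; the x axis is the log2 difference between the means of 5 diabetic and 5 normal arrays and the y axis is -log10 of limma's unadjusted p. The 76 orange points passed the adjusted threshold as higher in diabetic muscle and the 34 blue ones as lower, and the highest point without a label is the unnamed probe set M33648_at.

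Some of the genes that bring fatty acids into mitochondria, oxidise them, or store and release fat rose in diabetic muscle. Cpt1a (L07736_at), the carnitine palmitoyltransferase that commits long-chain fatty acids to oxidation, in its form best known from liver, gave signals of 819, 1144, 720.0, 891 and 837 in normal arrays 1 to 5 and 4111, 1976, 3040.0, 2718 and 3970.5 in diabetic arrays 1 to 5. The lowest diabetic array, number 2, lay above the highest normal one. The rise was 3.46-fold (1.79 ± 0.36 as a log2 change with its SE, adjusted p = 0.0143), and the log2 change was 1.65 without diabetic arrays 1 and 3. Decr1 (D00569_g_at), the mitochondrial reductase needed to oxidise unsaturated fatty acids, gave 13668, 15037, 8773, 6782 and 11893 in normal arrays 1 to 5 and 29725, 31566, 34990.2, 31182 and 28424 in diabetic arrays 1 to 5. Its diabetic arrays were close together and all above the normal ones (2.88-fold, 1.53 ± 0.31, adjusted p = 0.0148; 1.49 without the alike pair), and a further Decr1 probe set gave 1.57 ± 0.39 (adjusted p = 0.0456). Of the 22 tested genes of the carnitine shuttle and beta-oxidation, Cpt1a and Decr1 rose, 0 fell, and the list's median log2 change was -0.01 against -0.04 over all genes. Ech1, an auxiliary enzyme of beta-oxidation, gave 0.77 ± 0.22 (adjusted p = 0.0826), and Cpt1b, the muscle form of the carnitine palmitoyltransferase, gave 0.49 ± 0.34 (adjusted p = 0.482).

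Of the genes of the lipid droplet, 4 rose. Cidea (rc_AA800243_at), a lipid droplet protein best known from fat cells, gave 448, 843, 567, 1072 and 939.8 in normal arrays 1 to 5 and 4268, 2735, 4041, 3021 and 3119 in diabetic arrays 1 to 5. Every diabetic value was at least 2734.6, and no normal value was above 1071.9. It rose 4.52-fold (2.18 ± 0.33, adjusted p = 0.00204; 1.98 without diabetic arrays 1 and 3). Plin2 (rc_AA893280_at), which coats lipid droplets in muscle, gave 2306, 2282, 2040.5, 1174 and 1965 in normal arrays 1 to 5 and 6636, 3714, 6134, 3439 and 4144 in diabetic arrays 1 to 5. Diabetic arrays 1 and 3 were the highest, and the other 3 still lay above all normal arrays (2.43-fold, 1.28 ± 0.30, adjusted p = 0.0348; 0.98 without the alike pair). Aqp7, the channel through which glycerol leaves the cell, ran from 1183.8 to 1424 in normal and 2699 to 3118 in diabetic arrays (1.18 ± 0.26, adjusted p = 0.0257). Lipe, hormone-sensitive lipase, ran from 2540.4 to 5773 and from 7419 to 8843 (1.09 ± 0.27, adjusted p = 0.0446), also without overlap, and its other probe set gave 0.87 ± 0.40 (adjusted p = 0.271). Beside these 4, 0 of the 9 tested lipid droplet genes fell, and the list's median was 1.09. Gpd1, which makes glycerol phosphate for fat storage, gave 159, 20710.0, 120.0, 10695 and 8828 in normal arrays 1 to 5 and 257, 467, 406, 1529 and 219 in diabetic arrays 1 to 5. Normal arrays 1 and 3 lay below all diabetic arrays and the other 3 normal arrays far above them, and the difference (-2.24 ± 1.28, adjusted p = 0.384) did not pass.

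The fatty acid carriers Fabp4 (1.86 ± 0.44, adjusted p = 0.0344) and Fabp5 (1.22 ± 0.31, adjusted p = 0.0496) rose as well. The muscle fatty acid transporter Slc27a1 gave 0.94 ± 0.25 (adjusted p = 0.0518). Acsl6 (S56508_s_at), which activates long-chain fatty acids to acyl-CoA, went the other way, with 2084 to 8428 in normal and 889 to 1702 in diabetic arrays (-1.66 ± 0.38, adjusted p = 0.0299). Fatty acid uptake and activation thus held 2 risen and 1 fallen of 14 tested genes, with a median of 0.33. Cidea, Lipe and Fabp4 are also adipocyte markers: 3 of 7 tested adipocyte markers rose, 0 fell, and their summed signal ran from 16080 to 27666 in normal and from 33125 to 53915 in diabetic arrays. The other adipocyte markers gave 1.55 ± 0.50 for Cfd (adipsin, adjusted p = 0.114), -0.33 for leptin, 0.10 for Pparg and 0.06 for the fat-cell adrenergic receptor Adrb3, while Plin1 and Ucp1 were too dim to test. The part of fat cells in the lipid gene changes was not tested. In whole muscle, here and below, more cells of a type and more RNA per cell cannot be told apart.

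The insulin-regulated glucose transporter and a protein of its vesicles fell. Slc2a4 (D28561_s_at), which encodes GLUT4, gave 24701, 24581, 15609, 15683 and 19811 in normal arrays 1 to 5 and 6972, 9705, 7834, 12734 and 7699.5 in diabetic arrays 1 to 5. All 5 diabetic arrays lay below the normal ones, and diabetic array 4 came closest. The fall was 2.24-fold (-1.16 ± 0.29, adjusted p = 0.045; -1.0 without diabetic arrays 1 and 3). Its other probe set gave -0.42 ± 0.33 (adjusted p = 0.533), with groups that overlapped. Lnpep (U76997_at), the insulin-regulated aminopeptidase that travels in the same vesicles as GLUT4, ran from 251 to 1008 in normal and 64.0 to 248 in diabetic arrays (-1.46 ± 0.37, adjusted p = 0.0483), and 4 of the 5 diabetic values were below their array's 40th percentile. Over 24 tested genes of glucose uptake and glycolysis, Slc2a4 fell and 0 rose, with a median of -0.44 that was -0.14 without diabetic arrays 1 and 3. The basal glucose transporter Slc2a1 gave 1.17 ± 0.35 (adjusted p = 0.0926) and the phosphofructokinase Pfkp 1.07 ± 0.28 (adjusted p = 0.0517), both on the positive side but not past the test.

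The signalling chain upstream of GLUT4 showed falls in an activator and in an inhibitor of the insulin receptor pathway. Irs1 (X58375_at), the docking protein that carries the receptor's signal to PI3 kinase, gave 1171, 2666, 1161, 993 and 831 in normal arrays 1 to 5 and 479, 452, 436, 692 and 344 in diabetic arrays 1 to 5. Normal array 2 was far above the other normal arrays, yet all 5 diabetic values lay below every normal one (2.6-fold lower, -1.38 ± 0.35, adjusted p = 0.0483; -1.36 without diabetic arrays 1 and 3). Grb14 (AF076619_at), an adaptor that binds the activated insulin receptor and inhibits it, gave 3344, 2683, 2115, 3844 and 2322 in normal arrays 1 to 5 and 1028, 1125, 1025, 1324 and 1658 in diabetic arrays 1 to 5. It fell 2.29-fold with no overlap (-1.19 ± 0.25, adjusted p = 0.0159; -1.04 without the alike pair). Of 24 tested insulin receptor, PI3 kinase and Akt genes, Grb14, Irs1 and Lnpep fell, 0 rose, and the median was -0.24. The receptor itself, Insr, gave 0.06 ± 0.36 (adjusted p = 0.96) and Irs2 -0.97 ± 0.46 (adjusted p = 0.298). Phkg1, which encodes the catalytic part of phosphorylase kinase in muscle and switches on glycogen breakdown, fell (-1.48 ± 0.35, adjusted p = 0.0344) and was the only one past the test among 11 glycogen genes. Pdk4, the kinase that shuts off pyruvate dehydrogenase in fasted and diabetic muscle, gave 51.8, 10249, 32.0, 3599.5 and 2392 in normal arrays 1 to 5 and 1157, 4744, 981, 4544 and 626 in diabetic arrays 1 to 5. Its spread within each group spanned more than the difference between groups (1.16 ± 1.16, adjusted p = 0.64), and normal arrays 1 and 3, those with the high Gapdh ratio, were its lowest. Hexokinase Hk2 (0.40 ± 0.47, adjusted p = 0.704) and the uncoupling protein Ucp3 (0.37 ± 0.66, adjusted p = 0.817) did not pass the test.

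**Figure D2:**
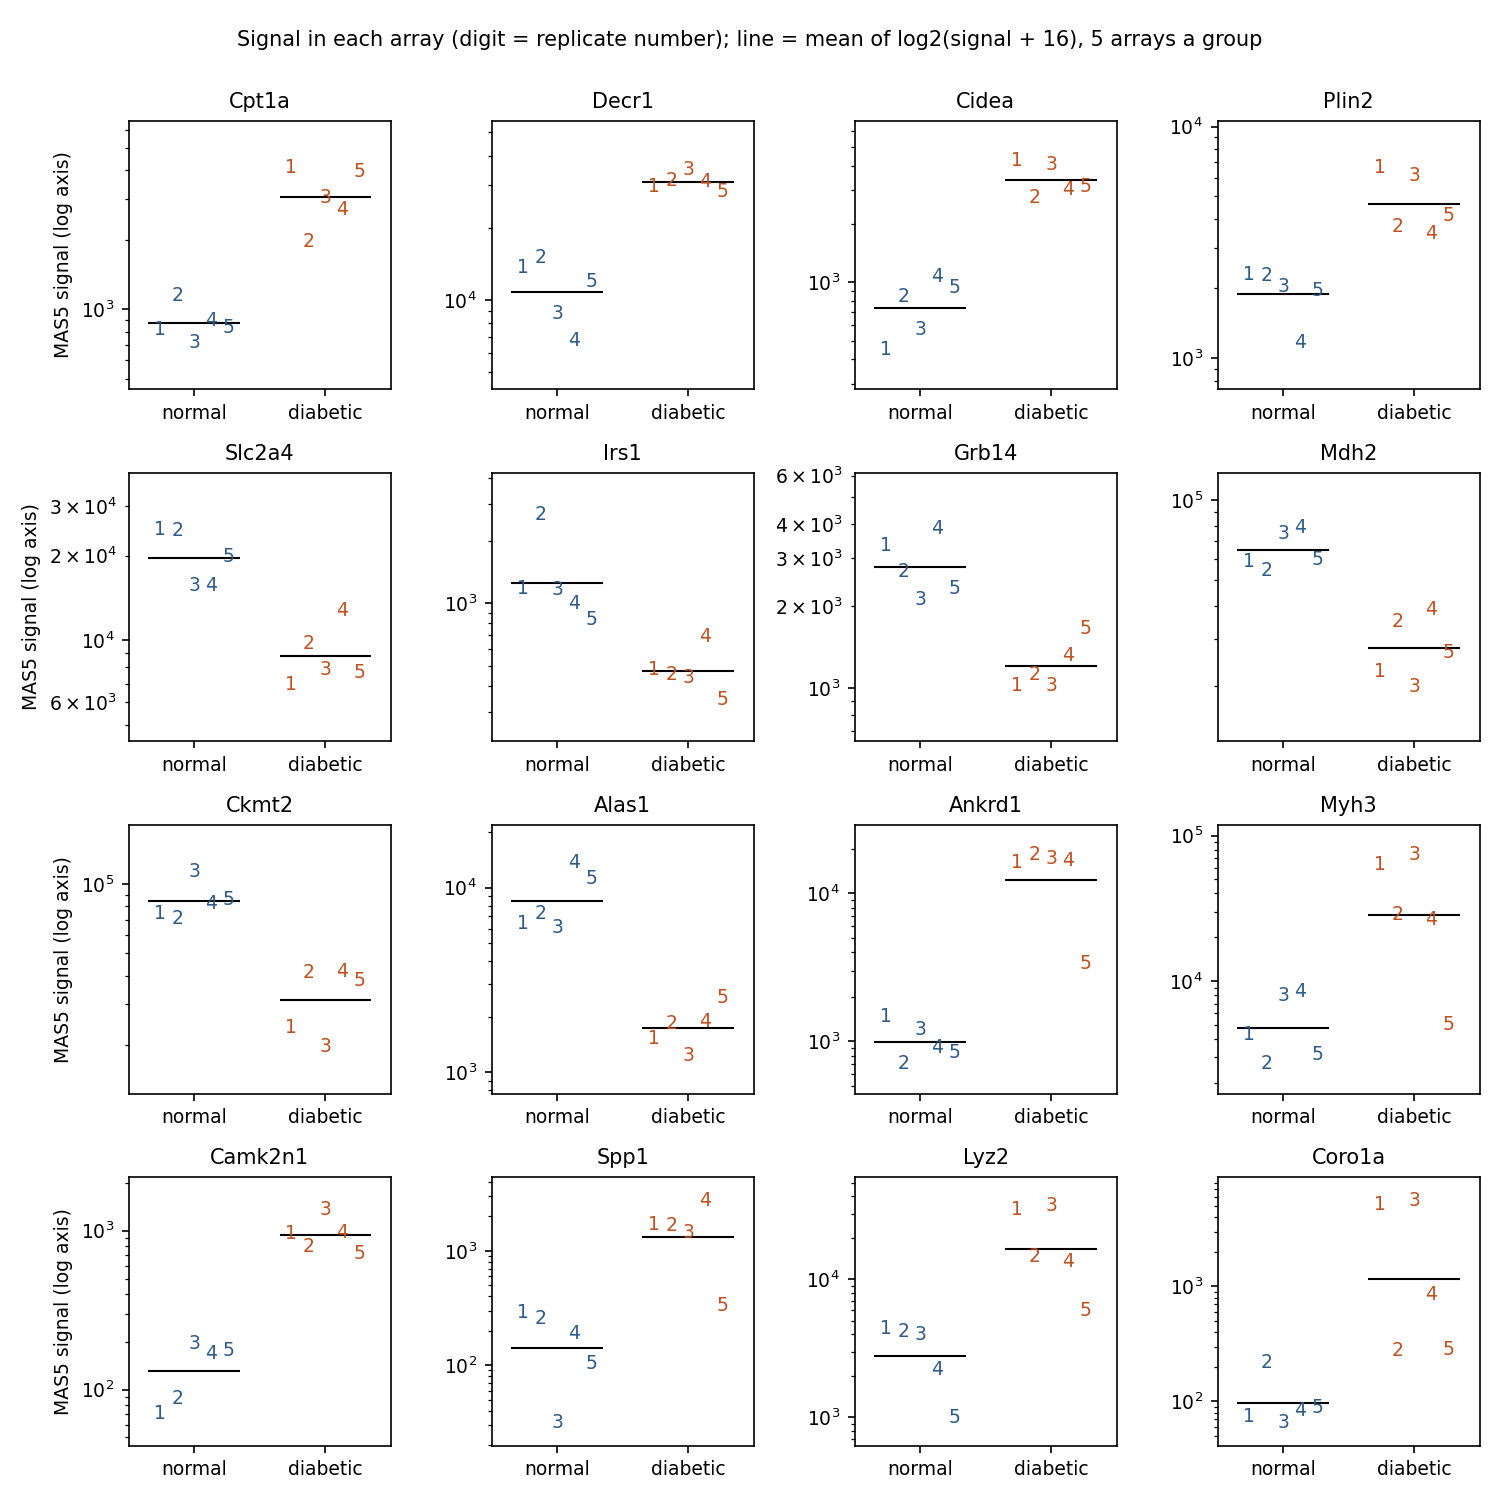
MAS5 signal of 16 genes in each array on log axes, with normal arrays in blue, diabetic arrays in orange, the array's replicate number as the mark, and a line at the mean of log2(signal + 16) over the 5 arrays of a group. Only for Myh3 do the groups overlap, where diabetic array 5 (5022) lies below normal arrays 3 and 4 (7915 and 8481).

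Most genes of the mitochondrial lists had negative changes, few of them past the test one by one. Mdh2 (rc_AI010480_at), the malate dehydrogenase of the citrate cycle, gave 58955, 54565, 75153, 79218 and 59973 in normal arrays 1 to 5 and 22821, 34921, 19900.1, 38968 and 26829 in diabetic arrays 1 to 5. No diabetic value reached the lowest normal one, and arrays 1 and 3 were the lowest (2.33-fold lower, -1.22 ± 0.26, adjusted p = 0.0197; -0.97 without them). The other Mdh2 probe set gave -0.67 ± 0.26 (adjusted p = 0.187), also with no overlap. Pdhx, which anchors a subunit of the pyruvate dehydrogenase complex, fell too (-1.34 ± 0.29, adjusted p = 0.0208). Dlat, the acetyltransferase of that complex, fell at 1 of its 3 probe sets (D00092_s_at, -1.69 ± 0.38, adjusted p = 0.0276) and gave -1.18 ± 0.31 (adjusted p = 0.0517) at its brightest. Pdhb, a further subunit of the complex, gave -0.94 ± 0.25 (adjusted p = 0.0518). In all, 2 of 19 tested genes of pyruvate dehydrogenase, the citrate cycle and the malate-aspartate shuttle fell and 0 rose, but 18 of the 19 had a negative change, against 1912 of 3582 over all genes. Their median was -0.65, and -0.49 without diabetic arrays 1 and 3.

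In the respiratory chain and ATP synthase most changes were negative too. Ckmt2 (X59736mRNA_g_at), the mitochondrial creatine kinase of muscle, which passes energy from ATP to creatine, gave 74138, 70824, 112989, 82198 and 85743 in normal arrays 1 to 5 and 23727, 41399, 19708, 41748 and 38073 in diabetic arrays 1 to 5. The groups did not overlap (2.67-fold lower, -1.42 ± 0.35, adjusted p = 0.045; -1.06 without diabetic arrays 1 and 3), and its other probe set gave -1.73 ± 0.40 (adjusted p = 0.0299). Cyc1, the cytochrome c1 of complex III, ran from 36775 to 74297 in normal and 16916 to 32506 in diabetic arrays (-1.09 ± 0.27, adjusted p = 0.0433). These 2 fell and 0 rose among 47 tested genes of the respiratory chain and ATP synthase, of which 43 had a negative change, with a median of -0.50. The cytochrome oxidase subunits Cox5b and Cox5a gave -0.92 ± 0.26 (adjusted p = 0.0786) and -1.17 ± 0.36 (adjusted p = 0.103), and the phosphate carrier Slc25a3 -0.77 ± 0.22 (adjusted p = 0.0732). The list's median was -0.34 with both 3′ to 5′ ratios as covariates, and 0.51 between treated diabetic and treated normal muscle. Its mean difference from the normal mean was -0.40 in normal array 4 and -0.21 in diabetic array 2, so the groups overlapped.

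Coq3, a methyltransferase of ubiquinone synthesis, fell (-1.15 ± 0.25, adjusted p = 0.0208), as did Gfm1, the elongation factor of mitochondrial translation (-1.33 ± 0.29, adjusted p = 0.0222). On the log2 scale Mrpl38, a protein of the mitochondrial ribosome, dropped by 1.15 (adjusted p = 0.0198) and Supv3l1, a helicase that degrades mitochondrial RNA, by 0.92 (adjusted p = 0.0276). Ppif, the cyclophilin of the mitochondrial matrix, dropped by 1.21 (adjusted p = 0.0435). The largest fall among the 26 fallen genes was that of Alas1 (J03190_at), the rate-limiting enzyme of heme synthesis, whose product goes into cytochromes and myoglobin, with signals of 6398, 7271, 6073, 13675 and 11249.6 in normal arrays 1 to 5 and 1523, 1829.6, 1231, 1886 and 2530.2 in diabetic arrays 1 to 5. All 5 diabetic arrays lay far below the normal ones (4.8-fold lower, -2.26 ± 0.42, adjusted p = 0.00838; -2.03 without diabetic arrays 1 and 3), and its other probe set gave -1.80 ± 0.30 (adjusted p = 0.00374). It was the only one of 8 tested heme genes past the test. The list's median was -0.19.

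A gene of muscle under load and a gene of developing muscle rose in diabetic muscle. Ankrd1 (U50736_s_at), a titin-associated protein induced when muscle is stretched or injured, gave 1478, 709, 1204, 913 and 835 in normal arrays 1 to 5 and 16285, 18198, 17292, 16634 and 3383 in diabetic arrays 1 to 5. Diabetic arrays 1 to 4 lay within 16285 to 18198, and array 5 stood well below them though above all normal arrays. The rise was 12.3-fold (3.62 ± 0.53, adjusted p = 0.00162; 3.32 without diabetic arrays 1 and 3). Myh3 (X04267_at), the embryonic myosin heavy chain that adult muscle re-expresses when it regenerates, gave 4286, 2696, 7915, 8481 and 3130.4 in normal arrays 1 to 5 and 63137, 28876, 74175, 26452 and 5022 in diabetic arrays 1 to 5. Array 5 was again low, inside the normal range, while the other 4 were above it (5.92-fold, 2.57 ± 0.52, adjusted p = 0.0155; 1.72 without the alike pair). A further Myh3 probe set (M12098_s_at) went from 90.9 to 554 in normal arrays to 20489, 6508, 15989, 6129 and 544 in the diabetic ones (4.14 ± 0.73, adjusted p = 0.00557), and the last gave 0.34 ± 0.37 (adjusted p = 0.675). Ankrd1 was the only one of 11 tested stretch genes past the test, the list's median was 0.27, and Csrp3 and Fhl2, LIM proteins of the sarcomere, gave 1.50 ± 0.53 (adjusted p = 0.145) and 1.58 ± 0.57 (adjusted p = 0.155). Both were also low in diabetic array 5, with 4754 against 15684 to 17495 for Csrp3 and 227 against 952 to 1302 for Fhl2.

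Camk2n1 (rc_AA858621_g_at), an inhibitor of calmodulin-dependent kinase II, gave 71.0, 88.1, 196, 168 and 177 in normal arrays 1 to 5 and 963, 792, 1364, 978 and 718 in diabetic arrays 1 to 5. The normal arrays were all under their 40th percentile, so the fold is at least 3.04 (each dim value raised to its array's 40th percentile, here and below), and the fitted log2 change was 2.70 ± 0.36 (adjusted p = 0.000587). It was the only named gene that passed the test without diabetic arrays 1 and 3 at its brightest probe set (2.52, adjusted p = 0.0264 in limma). The kinase subunit Camk2a gave -2.57 ± 0.74 (adjusted p = 0.0804), with 1 of 11 genes of this kinase and calcineurin list past the test. Among 20 embryonic and regeneration-linked genes Myh3 rose and Ccnd1, cyclin D1, fell (-1.25 ± 0.31, adjusted p = 0.0456). The cell cycle inhibitor Cdkn1a gave 1.57 ± 0.47 (adjusted p = 0.0887), cardiac troponin Tnnt2 1.89 ± 0.65 (adjusted p = 0.138) and myostatin -1.53 ± 0.53 (adjusted p = 0.138). Genes of fast fibres were on the negative side in 14 of 15 cases, with 0 past limma's test and 0 at an unadjusted p under 0.05, and their median of -0.43 was -0.15 after quantile normalization. Ckm and Acta1 gave -0.43 ± 0.42 (adjusted p = 0.627) and -0.41 ± 0.41 (adjusted p = 0.645). Among 13 slow fibre genes 0 passed limma's test and 3 were higher at an unadjusted p under 0.05. Their median of 0.18 was -0.05 without diabetic arrays 1 and 3 and 0.62 with the 3′ to 5′ ratios as covariates, and that of fast fibre genes was -0.08 with the ratios.

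Among genes of the extracellular matrix more rose than fell past the test. Spp1 (M14656_at), osteopontin, a matrix protein and cytokine made by macrophages and regenerating muscle, gave 287, 256, 31.7, 191 and 103 in normal arrays 1 to 5 and 1705, 1679.7, 1449, 2773 and 330.5 in diabetic arrays 1 to 5. Arrays 1 to 4 of the diabetic group ran from 1449 to 2773, and array 5 was nearest to the normal ones (8.43-fold, 3.08 ± 0.51, adjusted p = 0.00374; 2.90 without diabetic arrays 1 and 3), of which 4 were below their 40th percentile. Spock2, a proteoglycan (2.43 ± 0.44, adjusted p = 0.00778), and Thbs4, a thrombospondin of tendon and muscle (2.19 ± 0.44, adjusted p = 0.0146), rose with no overlap. Lox, the enzyme that cross-links collagen, rose at 2 of its 4 probe sets, from 576 to 804 up to 1231 to 2393 at the brightest (1.36 ± 0.27, adjusted p = 0.0146) and from 211 to 602 up to 1792 to 7620 at S66184_s_at (3.11 ± 0.41, adjusted p = 0.000587). The latter held its call without diabetic arrays 1 and 3 (2.47, adjusted p = 0.0235 in limma). Plat, the tissue plasminogen activator, rose (1.37 ± 0.33, adjusted p = 0.0433), and the protease inhibitor Timp1 rose at its dimmer probe set (1.98 ± 0.50, adjusted p = 0.0462) and gave 0.79 ± 0.31 (adjusted p = 0.197) at the brighter. Col15a1, a collagen of basement membranes, fell (-1.32 ± 0.31, adjusted p = 0.0348), but kept its call in only 3 of the 10 fits that left out 1 array. In all 4 of 37 tested matrix genes rose and 1 fell, with a median of 0.11, beside 1.34% risen and 0.726% fallen over all tested genes.

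Transforming growth factor beta signals reach the nucleus through receptors and Smad proteins. Ltbp1, which holds latent TGF-beta in the matrix, rose (1.32 ± 0.30, adjusted p = 0.0299). Smad3, the transducer of that signal, fell (-1.90 ± 0.46, adjusted p = 0.043), with diabetic values of 57.5 to 418 that overlapped with the 220 to 1567 of normal arrays, and so did Amhr2, the receptor for anti-Müllerian hormone (-2.0 ± 0.46, adjusted p = 0.0297). These were 1 risen and 2 fallen of 20 tested genes of the family, and the median was -0.20. The activin receptor Acvr2b gave 0.97 ± 0.33 (adjusted p = 0.129) and the activin antagonist follistatin (Fst) 1.24 ± 0.64 (adjusted p = 0.338).

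Markers of macrophages and other leukocytes had the highest median of the lists tested. Lyz2 (rc_AA892775_at), the lysozyme of macrophages, gave 4389, 4225, 3996, 2232 and 999 in normal arrays 1 to 5 and 32231, 14604, 34588, 13575 and 5914 in diabetic arrays 1 to 5. Arrays 1 and 3 were the highest and array 5 the lowest of the diabetic group, and none overlapped with the normal ones (5.99-fold, 2.58 ± 0.45, adjusted p = 0.00505; 1.92 without diabetic arrays 1 and 3). Coro1a (rc_AA892506_at), an actin-binding protein of leukocytes, gave 74.0, 219, 65.9, 82.6 and 89.2 in normal arrays 1 to 5 and 5154, 276, 5620.0, 846 and 282 in diabetic arrays 1 to 5. Its diabetic mean rested on arrays 1 and 3: the log2 change was 3.38 ± 0.74 (adjusted p = 0.0244) with them and 1.91 without, and since all normal values were under the 40th percentile the fold is at least 3.72. Fcgr2b, a receptor for the Fc part of antibodies (1.66 ± 0.27, adjusted p = 0.00374), galectin-3 (Lgals3, 1.49 ± 0.25, adjusted p = 0.00374), the lysosomal protease Ctss (1.81 ± 0.36, adjusted p = 0.0142), the monocyte attractant Ccl2 (1.48 ± 0.32, adjusted p = 0.0208) and the leukocyte membrane protein Cd53 (1.55 ± 0.39, adjusted p = 0.0462) rose with them. That made 7 of 13 tested markers risen and 0 fallen, with a median of 1.55, and 1.07 with 0 risen in limma when diabetic arrays 1 and 3 were left out. Of the 13 markers 10 had a positive change and 3 a negative one, the lowest -0.41. Their summed signal ran from 10397 to 18913 in normal and from 27492 to 105050 in diabetic arrays. Csf1r, Itgam, Ccl3, Ccl4 and Vav1 were on the array but too dim to test, as were all 6 neutrophil markers. Fcgr2b lay below the 40th percentile in 4 of the 5 normal arrays.

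Of the antigen presentation and complement genes, 2 rose. RT1-Da, a chain of the class II MHC molecule, rose (1.14 ± 0.27, adjusted p = 0.0378), with 24536 and 26541 in diabetic arrays 1 and 3, 11101 to 13699 in the other 3 and 5512 to 10443 in normal arrays. Serping1, the inhibitor of the complement protease C1, rose 2.01-fold (1.01 ± 0.25, adjusted p = 0.045). These were the 2 past the test among 19 genes, with a median of 0.67 that was 0.28 without diabetic arrays 1 and 3. C1qb and C1s, subunits of C1, gave 1.56 ± 0.43 (adjusted p = 0.0633) and 1.45 ± 0.39 (adjusted p = 0.0563), and the class II chaperone Cd74 gave 1.69 ± 0.53 (adjusted p = 0.106). Lymphocyte markers gave 0 past limma's test of 7, 1 higher at an unadjusted p under 0.05, and a median of 0.43 that was -0.10 without diabetic arrays 1 and 3. Lyve1, the hyaluronan receptor of lymphatic vessels and of some macrophages, rose (1.71 ± 0.32, adjusted p = 0.00889), as did Esm1, a proteoglycan secreted by endothelium (1.96 ± 0.31, adjusted p = 0.00257). The endothelial list as a whole had a median of -0.06, with Esm1 and Fabp4 risen of 10.

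Nfkbia, the inhibitor that NF-kappaB itself induces, went from 702 to 1045 in normal to 1933 to 4304 in diabetic arrays (1.74 ± 0.27, adjusted p = 0.00257). Cebpd, a transcription factor of the acute phase and of glucocorticoid response, went from 885 to 2178 to 3165 to 6925 (1.60 ± 0.32, adjusted p = 0.0148), though 1 of its 3 probe sets gave -0.27 ± 0.26. The calcium-binding protein S100a4 (2.23 ± 0.53, adjusted p = 0.0348) also rose. Outside the rule for naming genes, and so chosen after their values were seen, were Pla2g2a, a secreted phospholipase (1.82 ± 0.47, adjusted p = 0.0496), the protein kinase C Prkcb (2.52 ± 0.63, adjusted p = 0.0456, but 0.34 ± 0.37, adjusted p = 0.677, at its other probe set), the tetraspanins Cd63 (1.14 ± 0.26, adjusted p = 0.0276) and Cd9 (1.04 ± 0.26, adjusted p = 0.0483), and the small GTPase Arl11 (1.40 ± 0.31, adjusted p = 0.0261). Plat and Ppif above were chosen in the same way. How far cell number set these values was not tested.

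**Figure D3:**
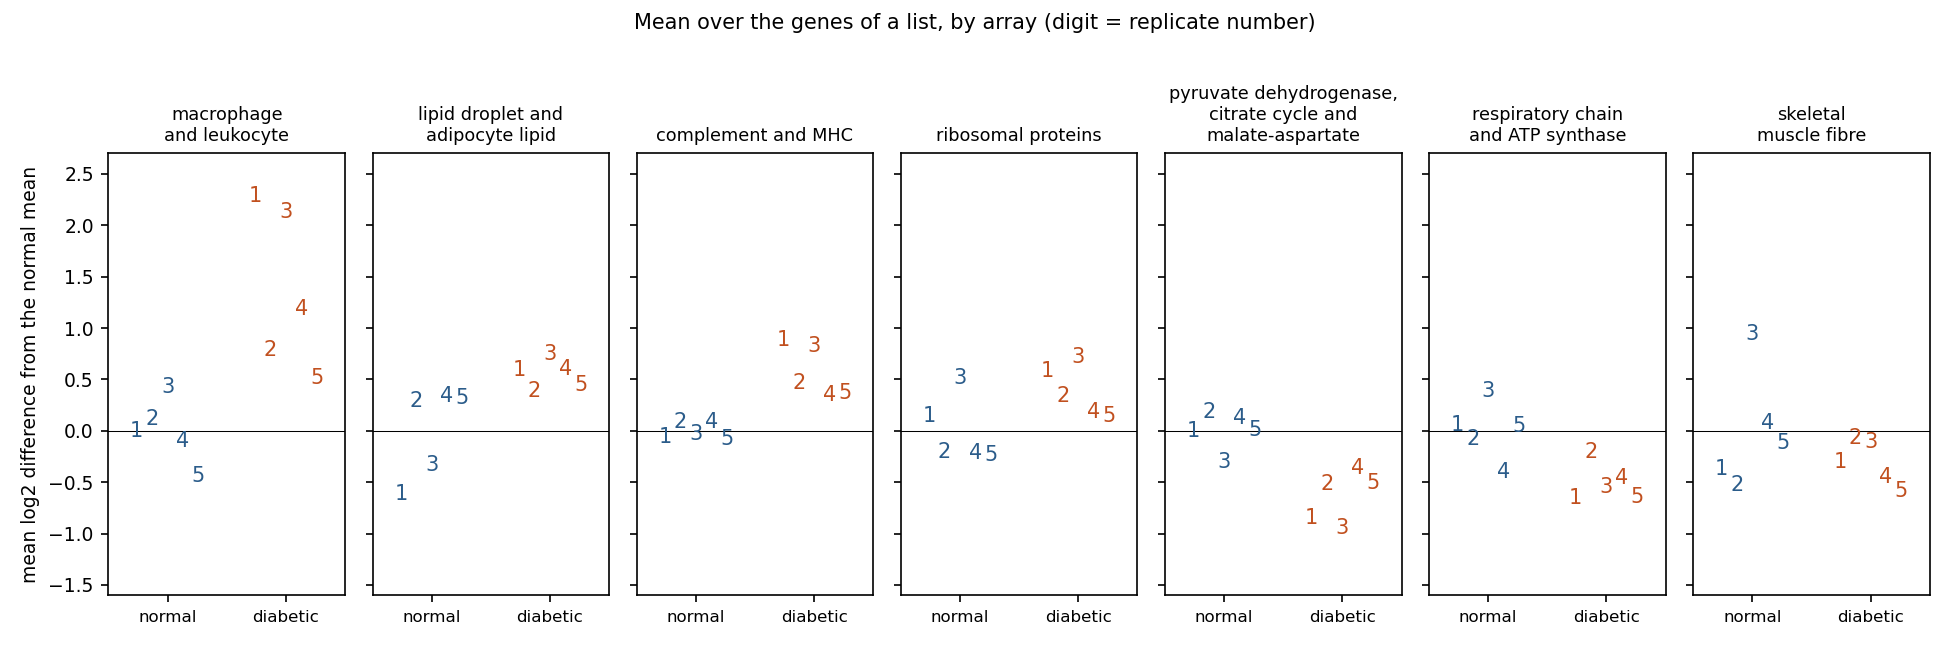
Mean over the genes of 7 lists of each array's log2 difference from the normal mean, with normal arrays in blue, diabetic arrays in orange and the replicate number as the mark. Macrophage and leukocyte markers reach 2.28 and 2.13 in diabetic arrays 1 and 3 and 0.52 to 1.19 in the other 3, and the citrate cycle list lies at -0.85 and -0.95 in the same 2 arrays and -0.37 to -0.52 in the others.

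The proto-oncogene Myc rose (1.29 ± 0.25, adjusted p = 0.0141) and was the only one of 17 immediate early genes past the test. Its other probe set passed too (adjusted p = 0.0417), but its normal values were all below the 40th percentile, so its rise there is at least 1.41-fold. Gstm2, a glutathione transferase, rose from 2077 to 4260.0 up to 8409 to 20283 (2.11 ± 0.52, adjusted p = 0.0435), and Impa2, an inositol phosphatase, rose too (1.70 ± 0.34, adjusted p = 0.0143). Synpo, an actin-binding protein, fell by 1.97 on the log2 scale (adjusted p = 0.0427), Fgd4, an activator of the GTPase Cdc42, by 1.93 (adjusted p = 0.0222), and Cmss1 by 1.75 (adjusted p = 0.0303). Fgd4 was under the 40th percentile in all 5 diabetic arrays, so its fall is at least 1.25-fold. Named after their values were seen, Notch1, Rasa2, Xdh, Tspan8, Abcc1, Gas5, Kctd20, Rph3al and Pik3c2g rose by 0.97 to 1.88, and Slc41a3, P2rx6 and Prss1 fell by 1.91, 1.47 and 1.58 as log2 changes (adjusted p from 0.0205 to 0.0497 in limma for these 12). Another Notch1 probe set had the opposite sign (-0.31 ± 0.39). Synpo and Prss1 lay under the 40th percentile in 4 of the 5 diabetic arrays.

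Lists linked to wasting and to protein synthesis showed little or no called change. The unadjusted counts below stand beside 342 higher and 244 lower of all 3582 tested genes at an unadjusted p under 0.05 in limma. Among 29 genes of ubiquitin, the proteasome and atrophy 0 passed limma's test, 1 had an unadjusted p under 0.05 as higher and 0 as lower, and the median was 0.11. The immunoproteasome subunits Psmb9 and Psmb8 gave 0.62 ± 0.26 (adjusted p = 0.223) and 0.93 ± 0.48 (adjusted p = 0.333). Ribosomal protein genes were positive in 34 of 37 cases with a median of 0.40 and 0 past limma's test, with 8 higher and 1 lower in limma when p was left unadjusted and under 0.05. Their mean difference from the normal mean was 0.72 in diabetic array 3 but also 0.52 in normal array 3, so the groups overlapped. Of 19 cathepsin and calpain genes only Ctss passed, with a median of 0.39, and the cathepsins and lysosomal proteins Ctsl and Lamp2 gave 1.54 ± 0.44 (adjusted p = 0.0786) and 1.62 ± 0.45 (adjusted p = 0.0661). Neuromuscular junction and denervation genes (13 tested), the IGF system (10) and heat shock genes (26) had medians of -0.08, -0.12 and -0.06, with 0 past limma's test in each and 2, 0 and 4 at an unadjusted p under 0.05. Ketone body and PPAR-linked fasting genes (12 tested), lipid synthesis (19), amino acid breakdown (14) and membrane ion pumps and channels (15) had medians of 0.01, -0.01, -0.19 and -0.34, again with 0 past limma's test and 2, 5, 5 and 2 at an unadjusted p under 0.05. The ketone body enzyme tested was Acat1, while Bdh1 was too dim to test, so the first of these medians describes mainly the PPAR-linked genes. Glucocorticoid-induced genes (11, Cebpd risen), glutathione and antioxidant genes (28, Gstm2 risen) and S100 proteins and annexins (11, S100a4 risen) had medians of 0.55, 0.37 and -0.05. Fibroblast and tendon markers (12) had a median of 0.31 with Thbs4 risen. Markers of smooth muscle (8), nerve (9), erythrocytes (4) and mast cells (4) had medians of 0.39, -0.33, -0.24 and 0.46, with 0 past limma's test and 1, 3, 0 and 0 at an unadjusted p under 0.05. Several of these medians turned sign without diabetic arrays 1 and 3: fibroblast and tendon markers gave -0.01, carnitine shuttle and beta-oxidation 0.22, the calmodulin kinase and calcineurin list 0.07 and heat shock genes 0.01. Smooth muscle and mast cell markers gave 0.10 and 0.05 there. Without normal arrays 1 and 3 the nerve markers gave 0.36 and the S100 proteins and annexins 0.59.

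**Figure D4:**
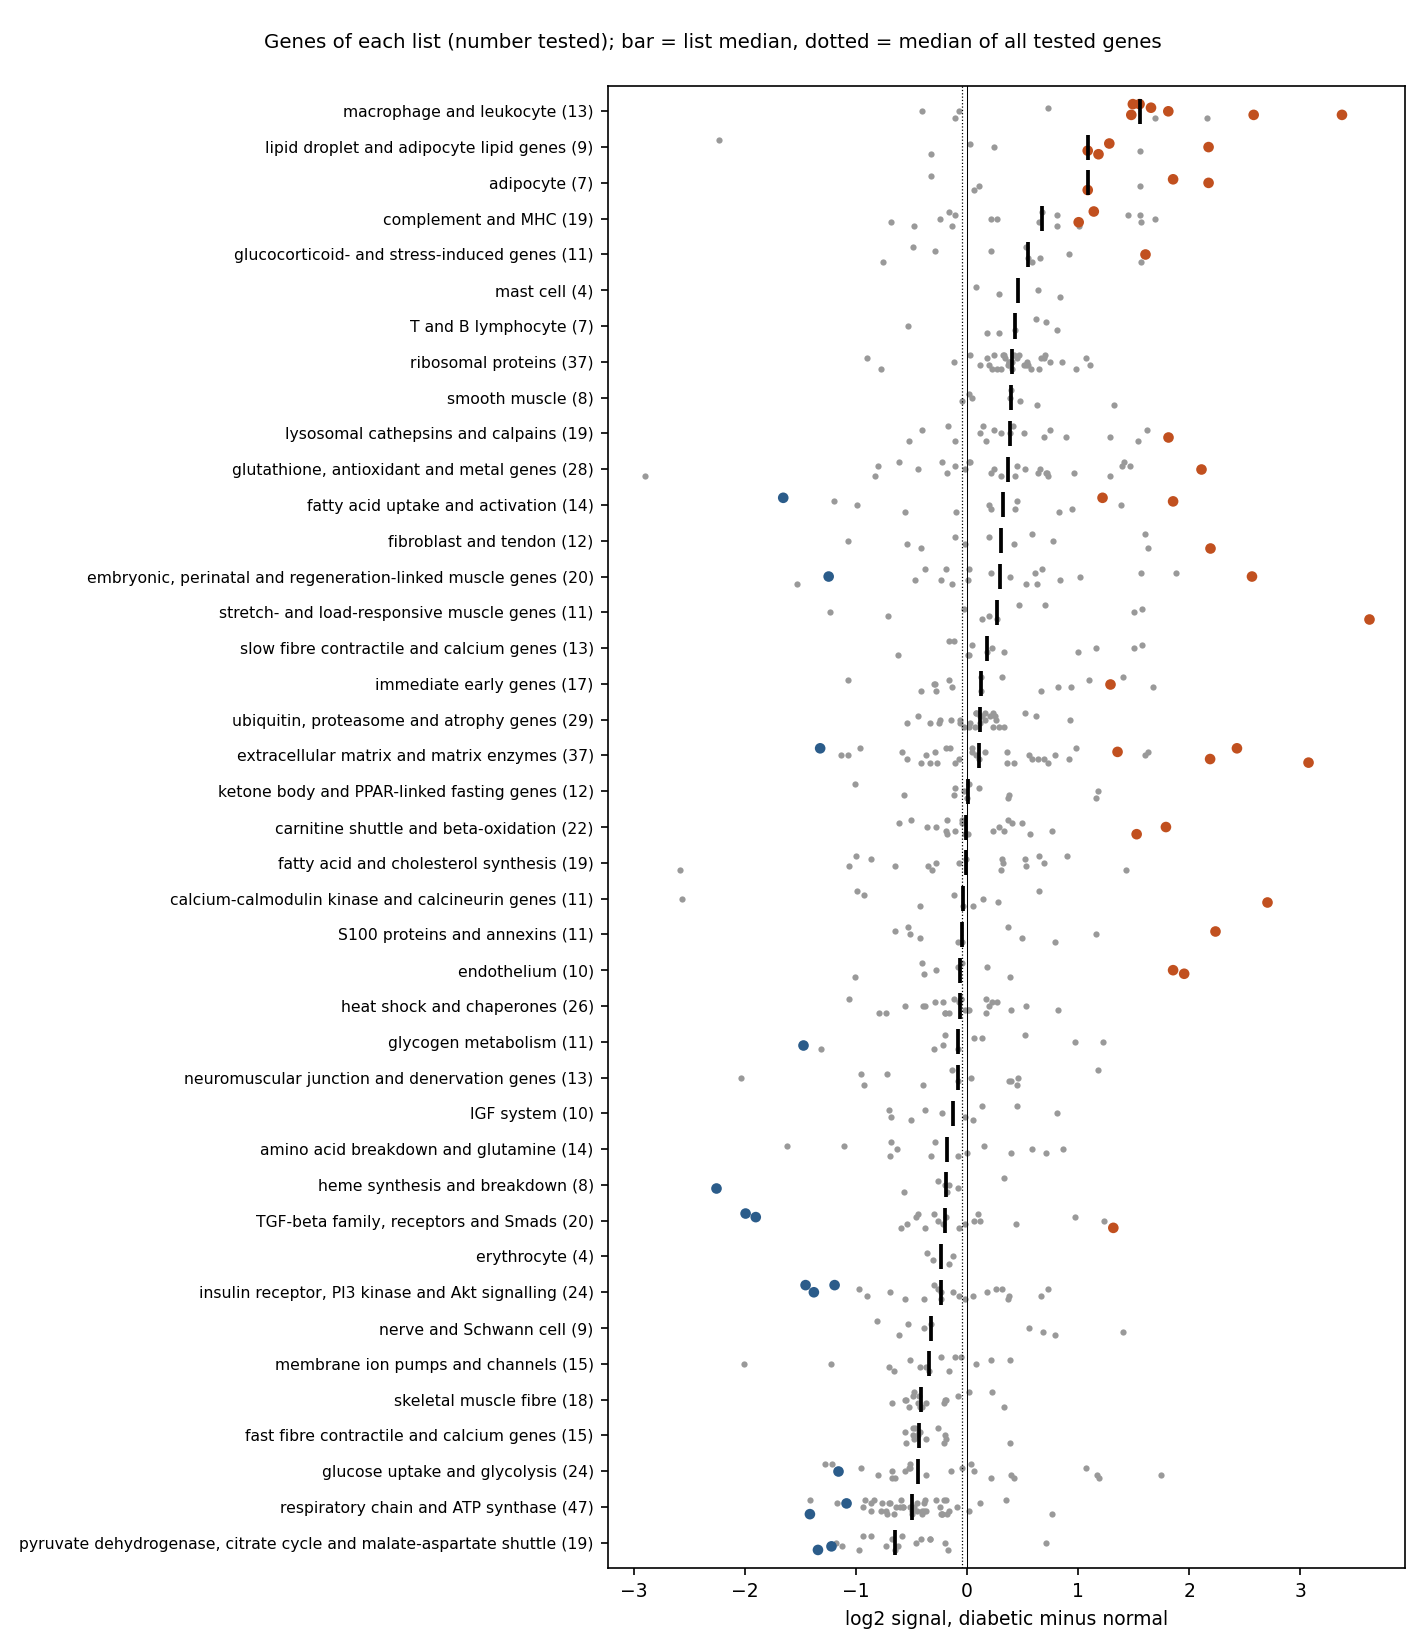
Each line across is a gene list with its number of tested genes, each point a gene's log2 difference between diabetic and normal muscle, orange where risen and blue where fallen past the adjusted threshold and grey otherwise. The medians (bars) run from 1.55 for macrophage and leukocyte markers to -0.65 for pyruvate dehydrogenase and the citrate cycle, around a median of -0.04 for all tested genes (dotted line).

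Of the 110 probe sets past the test, 74 stood for a gene, 16 were further probe sets of named genes and 20 had no single gene symbol. The unnamed ones included some of the largest differences, all chosen after their values were seen. Probe set rc_AI176456_at gave 2278, 672, 2048, 1687 and 1450.0 in normal arrays 1 to 5 and 61971, 33762, 75916, 29888 and 24069 in diabetic arrays 1 to 5, with no overlap (4.75 ± 0.70, adjusted p = 0.00162). M33648_at, which had the smallest p of the comparison, gave 37.8, 33.6, 64.5, 95.7 and 93.2 in normal arrays 1 to 5 and 1590.4, 513, 1183, 857 and 3409.7 in diabetic arrays 1 to 5. All 5 normal values were below their array's 40th percentile, so its rise is at least 3.97-fold (4.03 ± 0.40, adjusted p = 1.83e-05; 3.93 without diabetic arrays 1 and 3). Every treated array was below its 40th percentile as well, with 48.1 to 160.7. M33648_at thus entered the test only through the 5 diabetic arrays, so its small p was favoured by the filter. U39609_s_at gave 937, 170.5, 1108, 146 and 675 in normal arrays 1 to 5 and 99162, 2157, 128393, 1441 and 1549 in diabetic arrays 1 to 5. Its rise (4.29 ± 1.07, adjusted p = 0.0456) came mainly from diabetic arrays 1 and 3. Neither U39609_s_at nor rc_AI176456_at passed the test without these arrays. Genes that passed only at a probe set other than their brightest included Ide, the insulin-degrading enzyme (-1.43 ± 0.36, adjusted p = 0.0475), the retinoid receptor Rxrg (-1.78 ± 0.45, adjusted p = 0.0475), Igf1r, the receptor for insulin-like growth factor (adjusted p = 0.0496), and Lims1 (adjusted p = 0.0327). The Igf1r probe set lay below the 40th percentile in every normal array, so its rise is at least 1.72-fold, and that of Lims1 in every diabetic array, so its fall is at least 1.43-fold. At the brightest probe set Ide gave -0.67 ± 0.47, Rxrg -1.01 ± 0.31 and Lims1 -0.34 ± 0.22, and Igf1r had the opposite sign (-0.23 ± 0.30). Of the 74 genes, 23 had more than 1 tested probe set, and 28 of their 30 other probe sets had the same sign, 6 past the threshold. Those not past it included 0.90 ± 0.32 for Ccl2, 0.88 ± 0.36 for RT1-Da, 1.43 ± 0.49 for Nfkbia, 0.59 ± 0.33 for Cd9, 0.24 ± 0.35 for Rph3al and, for Ccnd1, values from -1.03 to -0.29.

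Single arrays decided many calls. Of the 74 genes, 13 kept their call whichever single array was left out: Camk2n1, Ankrd1, Cidea, Nfkbia, Esm1, Fcgr2b, Spp1, Lgals3, Lyz2, Spock2, Lyve1 and Impa2 among the risen and Alas1 among the fallen. None of the 74 changed sign under any setting tried, which their choice on these same arrays makes likely. The count of higher probe sets, 76 in all, was 22 without diabetic array 1 and also 22 without diabetic array 3, 148 without normal array 1, and 43, 40 and 32 without normal arrays 2, 4 and 5. The count of lower ones, 34, was 3 and 2 without diabetic arrays 1 and 3, 99 without normal array 1, and 10, 8 and 4 without normal arrays 2, 4 and 5. For 20 of the 48 risen genes diabetic array 1 lay farthest from the normal mean and for 13 array 3. Array 2 was nearest to it for 20 and array 5 for 15. Of the 26 fallen genes array 3 was the farthest for 16.

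The series holds another diabetes comparison in rats given vanadyl sulfate, which shares no array with the first. In treated rats 0 of 6027 probe sets (0%) differed between diabetic and normal muscle in limma's test. At an unadjusted p under 0.05 in limma there were 1076, against 1007 of the same 6027 in untreated rats. With the 3′ to 5′ ratios as covariates the treated count was 539, and the untreated one 392 higher and 341 lower. Treated diabetic array 1 had the highest Gapdh ratio of the series, 3.94. Beta-actin ratios ran from 1.2 to 2.61 in treated diabetic and from 0.48 to 2.09 in treated normal arrays. The part of RNA quality in the treated comparison was not tested. The treated count past the adjusted threshold was 109 without treated diabetic array 2, 5 without treated diabetic array 4 and 3 without treated normal array 4. Of the 48 genes risen in untreated rats, 26 had a positive change in treated rats and 3 of those an unadjusted p under 0.05, with medians of 1.58 untreated and 0.06 treated. Of the 26 fallen, 17 were negative in treated rats and 4 of those had an unadjusted p under 0.05, with medians of -1.40 and -0.18. Choosing genes on the untreated arrays enlarges their untreated change, so these medians are not a test of a difference. Cpt1a gave 0.85 ± 0.36 in treated rats (unadjusted p = 0.027), Lipe 0.73 ± 0.27 (0.0128) and Decr1 0.67 ± 0.31 (0.042), by limma without adjustment. Slc2a4 gave -0.51 ± 0.29, Irs1 -0.06 ± 0.35, Alas1 -0.31 ± 0.42 and Mdh2 0.06 ± 0.26 (log2 change ± SE).

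The difference between the 2 diabetes effects was tested for every probe set, and 10 of 6027 (0.166%) passed. Of these 5 stood for genes that had risen in untreated rats. Ankrd1 changed by 3.62 ± 0.53 in untreated and -0.18 ± 0.53 in treated rats (adjusted p of the difference = 0.0442), Cidea by 2.18 ± 0.33 and -0.21 ± 0.33 (0.0442), and Fcgr2b by 1.66 ± 0.27 and -0.50 ± 0.27 (0.0315). Lyve1 changed by 1.71 ± 0.32 and -0.63 ± 0.32 (0.0434) and Serping1 by 1.01 ± 0.25 and -0.75 ± 0.25 (0.0442), all from limma. In treated rats Ankrd1 ran from 566 to 4784 in diabetic and 787 to 3918 in normal arrays. The others were the Lox probe set S66184_s_at, the unnamed M33648_at, rc_AI176456_at and rc_AA859832_at, and Alox5ap, which serves leukotriene synthesis and had not passed in untreated rats (1.36 ± 0.39, adjusted p = 0.0804, against -1.62 ± 0.39 treated). M33648_at was bright only in the untreated diabetic arrays, through which it entered the test. The signal of rc_AI176456_at was 43792 in treated normal array 5, against 1860 to 3992 in the other treated normal arrays. Cpt1a, Slc2a4, Mdh2 and Alas1 were not among the 10: the difference had an adjusted p of 0.435 for Cpt1a, 0.5 for Slc2a4, 0.146 for Mdh2 and 0.157 for Alas1. The 10 became 1 without diabetic array 1, 3 or 4, without normal array 5, without treated diabetic array 3 or without treated normal array 3. It was 2 without treated diabetic array 1 or treated normal array 5, 3 and 6 without normal arrays 2 and 4, 4 without treated normal array 2 and 22 without diabetic array 5.

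**Figure D5:**
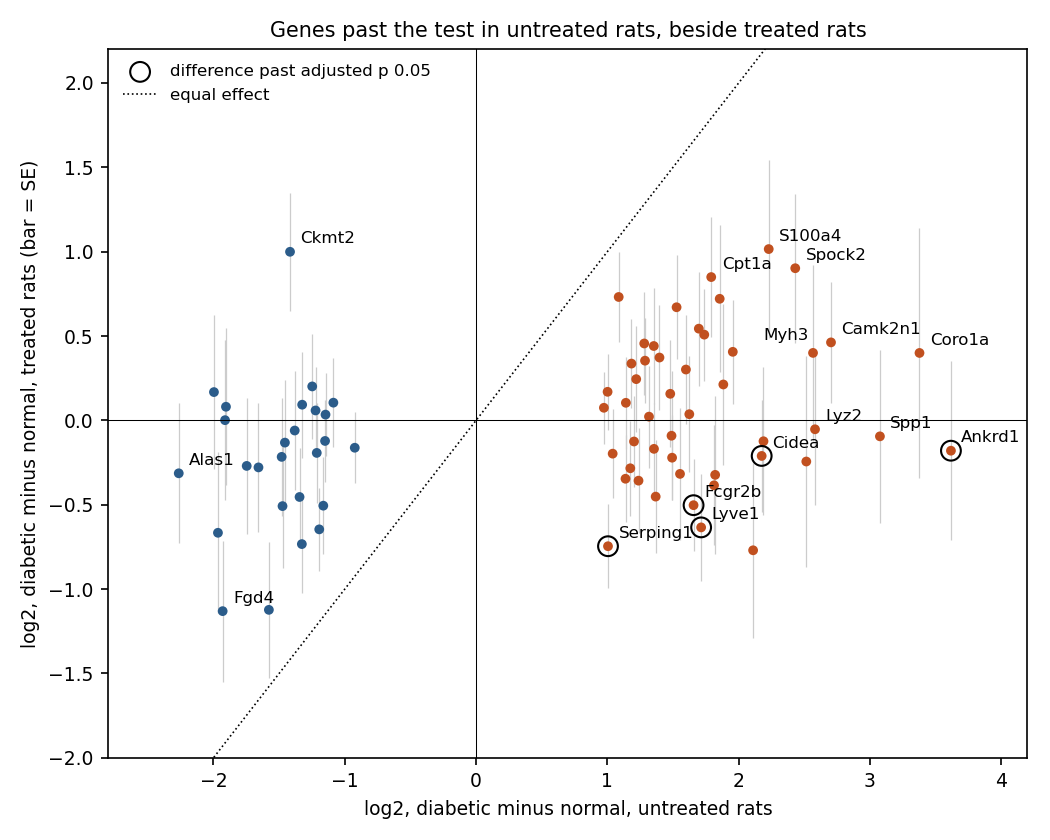
Log2 change between diabetic and normal muscle of the 74 genes past the test, in untreated rats on the x axis and in treated rats on the y axis with its SE, risen genes in orange and fallen ones in blue. All 74 points lie nearer to 0 on the y axis than on the x axis, and circles mark the 5 genes whose effects differed past an adjusted p of 0.05.

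Promoter sequences from RefSeq (GRCr8 annotation, 250 bases before the gene start) were searched on both strands for motifs tied to these gene groups. The PPAR response element, written strictly as AGGTCA repeated in the same direction with 1 base between, was in 17 of 33469 promoters (0.0508%) and in 0 of the 17 named lipid genes that had an entry. The M-CAT element, CATTCCT, was in 1457 of 33469 (4.35%), in Cpt1a among the 17 lipid genes and in both stretch genes with an entry, Fhl2 and Flnc. Only 2 of the 4 named stretch genes had an entry, and neither had passed the test. Ankrd1, the stretch gene that had passed, had no entry. A match is a description of letters, not of a bound site.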

How the data were processed

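Per the submitters' processing notes the authors made the deposited signal intensities with MAS5, with no version stated. They are linear, with 1 value per probe set and array, from an Affymetrix rat array, and their 2% trimmed means, 2503 to 2506, are nearly equal in all 20 arrays. Poly(A) RNA came from rear leg muscle, per the labels' protocols. Detection calls were not used here. The number of arrays limits the precision.

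Of 8799 probe sets 59 controls were left out, and 6027 (69%) whose signal exceeded their array's 40th percentile in at least 5 of 20 arrays were tested. log2(signal + 16) entered limma's linear model with empirical Bayes (version 3.58.1 in R 4.3.3) over all 20 arrays and 4 groups, two-sided, with Benjamini-Hochberg adjustment over all 6027 and a threshold of 0.05. A log2 change on this scale understates that of dim genes. Values written with ± are log2 changes with their SE, and every adjusted p is from this fit unless it says otherwise. Exact permutation tests used scipy 1.17.1 (Python 3.11.15). The procedure was tested on simulated data.

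Symbols came from GEO's platform annotation: 7018 probe sets had 1 symbol, 308 several and 1473 none listed, and only the first were named. The probe set of highest mean log2 signal stood for a gene. Named were the 15 risen and 15 fallen genes of smallest p, list members past the threshold, up to 3 further members of each list with the smallest p, and Pdk4, Ucp3, Slc2a4, Hk2, Cpt1a, Cpt1b, Insr, Irs1, Ckm and Acta1. The genes and the 31 gene lists and 11 cell type marker lists were chosen with earlier results of these data known, so lists get counts and medians and no test.

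Alternatives were other pseudocounts (1 and 200), no filter or the 60th percentile, quantile normalization, the 2 groups' arrays only, the replicate number as a block, 3′ to 5′ ratios as covariates, array weights and each array left out. Leaving out or averaging diabetic arrays 1 and 3, and leaving out normal arrays 1 and 3, was chosen after seeing the data.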

Additional observations from a re-analysis of the deposited data

Results flagged for a closer look

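Of 166 groups of 5 arrays (81 genes and 2 ratios, normal and diabetic), 12 held an array whose gap to its nearest neighbour, as a share of the group's range on the log2 scale, was above Dixon's critical value of 0.71. Chance gives about 1 in 20 such groups. Diabetic array 5 was the lowest for Ankrd1 (0.934) and Tspan8 (0.773) and the highest for Impa2 (0.837), and diabetic array 1 was the lowest for Notch1 (0.742). Normal array 3 was the highest for Lyve1 (0.876) and Ckm (0.73) and the lowest for Gfm1 (0.89). Normal array 2 was the highest for Coro1a (0.763) and Cmss1 (0.756), normal array 1 for Arl11 (0.734), and the lowest values were those of normal array 5 for Esm1 (0.783) and normal array 4 for Plin2 (0.763).

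The diabetes effect differed between untreated and treated rats past limma's adjusted threshold for 5 named genes of the report. The log2 change in untreated minus that in treated rats was 3.80 for Ankrd1, 2.39 for Cidea, 2.16 for Fcgr2b, 2.35 for Lyve1 and 1.75 for Serping1.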

How the results depend on the processing

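The signs of the 74 genes, which were chosen on these same arrays, held under every alternative run, but the counts of calls moved. Probe sets higher in diabetic muscle, 76 in all, numbered 47 without a filter, 23 with the 3′ to 5′ ratios as covariates, 320 with array weights, 3 without diabetic arrays 1 and 3, 21 with these averaged, and 212 without normal arrays 1 and 3. Lower ones, 34 in all, numbered 15, 9, 195, 0, 2 and 240 under the same settings. With the 2 groups' arrays only, 54 were higher, 40 of them shared with the main fit, and 17 lower, 11 of them shared. Leaving out 1 array gave 22 to 148 higher and 2 to 99 lower. In treated rats the count of 0 became 38 with array weights and 0 to 109 with 1 array left out, the most without treated diabetic array 2. Without treated diabetic array 4 it was 5, and without treated normal array 4 it was 3. The 10 probe sets whose effects differed became 1 without a filter, 1 after quantile normalization, 1 with the ratios, 40 with array weights, and 1 to 22 with 1 array left out. Whether the replicate numbers pair the samples was not tested. Deviations of same-numbered normal and diabetic arrays correlated at 0.27, 0.0045, 0.23, 0.090 and 0.076, all positive. Of these arrays 3 of 5 were highest with their own number. With the replicate block the counts were 72 higher (62 shared) and 34 lower (26 shared), 16 in treated rats and 6 for the difference. Other pseudocounts, the 60th percentile and quantile normalization left the counts of higher and lower probe sets within 1.5 times. The cause of these moves was not tested. Probe sets under the 40th percentile in all arrays of a group have only a bound there.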
